A study of Mus musculus with 12 samples.

Results

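The class I odorant receptor genes described here are 6 that are known to respond to short-chain fatty acids or dicarboxylic acids: Olfr78, Olfr558, Olfr544, Olfr545, Olfr690 and Olfr691. They were chosen for these ligands and found by gene symbol among 1380 odorant receptor genes and 44930 genes in all, and each symbol matched 1 row. One group was 6 male mice with the eB deletion, which lack an enhancer of 1155 bp inside the class I receptor cluster (chr7:102847692-102848846, read here as GRCm38 coordinates), and the other was 6 wildtype male mice. Both groups had the mixed background 129S6;C57BL/6J, were taken at postnatal day 30, and gave total RNA of the dissected olfactory mucosa, from which ribosomal RNA was removed before stranded sequencing. The labels do not say whether the deletion was on 1 or both chromosomes.

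Odorant receptors are G protein-coupled receptors, and a mature olfactory sensory neuron expresses one receptor gene from one allele. Class I receptors resemble those of fish, lie in a single cluster in the mouse, and are mostly used by neurons of the dorsal zone of the epithelium; many of them respond to hydrophilic odorants, carboxylic acids among them. Olfr78 responds to acetate and propionate and is also known from vascular smooth muscle, the kidney and the carotid body. Olfr558, its relative, responds to short and branched fatty acids such as butyric and isovaleric acid, and Olfr544 and Olfr545 respond to dicarboxylic acids such as azelaic acid. Olfr690 is known as a receptor for isovaleric acid, and Olfr691 is a relative of it. In RNA of whole mucosa, fewer neurons that chose a receptor and less RNA per neuron cannot be told apart.

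The 6 genes form 3 pairs by their older names in RefSeq, which place each pair in a subfamily of its own (MOR18 for Olfr78 and Olfr558, MOR42 for Olfr544 and Olfr545, MOR31 for Olfr690 and Olfr691). In GENCODE M21, Olfr544 (chr7:102482031-102488313, minus strand) and Olfr545 (chr7:102491466-102499573, minus strand) lay 359 and 348 kb from the deleted element on its side of lower coordinates. Olfr558 (chr7:102702215-102712064, plus strand) and Olfr78 (chr7:102738511-102759471, minus strand) lay on the same side, 136 and 88.2 kb away. Olfr690 (chr7:105328225-105334104, minus strand) and Olfr691 (chr7:105335509-105342270, minus strand) lay on the side of higher coordinates, 2479 and 2487 kb away. All 6 are annotated as protein-coding, with the coding sequence in 1 exon behind a noncoding first exon in the spliced transcripts.

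Sequence decides how well the reads of a pair can be told apart, so the coding sequences were compared. Over 951 aligned bases, Olfr544 and Olfr545 were 95.6% identical, with 42 mismatches and a longest identical run of 218 bases. That run lies at the start of the coding sequence and is shown in capitals, within coding bases 1 to 252 of each gene (Olfr544 at chr7:102484867-102485118, Olfr545 at chr7:102494522-102494773, both on the minus strand):
Olfr544: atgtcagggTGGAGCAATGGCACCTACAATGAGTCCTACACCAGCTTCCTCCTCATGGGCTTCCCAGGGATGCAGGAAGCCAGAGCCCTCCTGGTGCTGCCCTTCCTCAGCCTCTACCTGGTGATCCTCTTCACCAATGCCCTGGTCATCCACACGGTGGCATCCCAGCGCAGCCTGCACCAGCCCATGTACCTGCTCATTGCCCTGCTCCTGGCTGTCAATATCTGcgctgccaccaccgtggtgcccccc
Olfr545: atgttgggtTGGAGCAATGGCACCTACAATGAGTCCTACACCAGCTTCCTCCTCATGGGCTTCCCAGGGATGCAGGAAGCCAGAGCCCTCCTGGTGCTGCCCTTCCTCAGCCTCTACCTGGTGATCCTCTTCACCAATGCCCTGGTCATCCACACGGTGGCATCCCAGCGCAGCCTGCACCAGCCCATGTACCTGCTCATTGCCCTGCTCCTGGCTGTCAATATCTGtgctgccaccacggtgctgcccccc

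Of all 50-base stretches of the Olfr544 transcript, 10.9% occurred unchanged in the Olfr545 transcript, and 10.2% the other way; of 100-base stretches, 4.0% and 3.8% did. Neither the read length nor the treatment of reads with several matches is stated in the labels, so the single values of Olfr544 and Olfr545 are uncertain where reads fell in such stretches.

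The other pairs were far less alike. The longest identical run of Olfr78 and Olfr558 had 23 bases, shown in capitals with 25 coding bases on each side (Olfr78 at chr7:102742615-102742687, minus strand; Olfr558 at chr7:102709584-102709656, plus strand):
Olfr78: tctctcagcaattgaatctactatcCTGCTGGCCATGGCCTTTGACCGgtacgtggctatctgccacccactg
Olfr558: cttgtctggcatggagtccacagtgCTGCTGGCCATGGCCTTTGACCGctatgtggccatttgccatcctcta
It lies in the stretch that encodes the motif, conserved in odorant receptors, at the end of the third transmembrane segment. Between Olfr690 and Olfr691, neighbours 1.41 kb apart, the longest run had only 13 bases (Olfr690 at chr7:105329870-105329932, Olfr691 at chr7:105337394-105337456, both minus strand):
Olfr690: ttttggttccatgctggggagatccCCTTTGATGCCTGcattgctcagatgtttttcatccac
Olfr691: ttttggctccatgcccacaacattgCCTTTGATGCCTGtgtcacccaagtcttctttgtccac
Coding identity was 65.0% for Olfr78 and Olfr558 and 68.6% for Olfr690 and Olfr691. Over the 14 of 15 pairs of these genes other than Olfr544 and Olfr545 it lay between 56.9% and 68.6%, and no 50-base stretch was shared within the pair Olfr78 and Olfr558 or within the pair Olfr690 and Olfr691. A different overlap concerns Olfr78: the receptor gene Olfr560 (chr7:102751818-102759366) lies inside it on the same strand, and 926 exon bases are common to both, 15.4% of the exon bases of Olfr78 and 42.7% of those of Olfr560. Olfr560 held 4 to 17 reads per animal, and the labels do not say how reads in the common exons were assigned.

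The libraries held between 13152662 and 23059835 reads on genes, of which receptor genes took 0.76% ± 0.04 in eB deletion and 0.75% ± 0.06 in wildtype animals (SD, n = 6 each). The predicted gene Gm10800 took 2.38% of reads in eB deletion 4 (95% Wilson interval 2.37 to 2.38) and 11.02% in wildtype 2 (11.00 to 11.04), with 0.55% in eB deletion 1, 0.33% in wildtype 5 and at most 0.00514% in the other 8 libraries. These intervals cover counting error only. Markers of mature olfactory sensory neurons were abundant in both groups: the olfactory marker protein gene Omp had 63300 ± 4535 normalized counts in eB deletion and 64610 ± 3979 in wildtype animals (SD, n = 6 each).

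All 6 genes had reads in every animal. Together they held 393 to 617 reads per eB deletion animal and 469 to 628 per wildtype animal. Olfr545 was the lowest, with 10 to 21 reads in eB deletion and 13 to 26 in wildtype animals, and the other 5 held between 43 and 172 reads in every library. All 6 passed the filter on low values (a normalized count of at least 10 in 6 or more animals). Per length, in RPKM (reads per kb of exon, scaled to a common number of reads on genes), Olfr690 came first in both groups, at 2.99 ± 1.196 in eB deletion and 4.00 ± 0.53 in wildtype animals (SD, n = 6 each). Olfr691 was at 2.51 ± 0.24 in eB deletion and 2.45 ± 0.60 in wildtype animals, and Olfr544 at 1.51 ± 0.44 in eB deletion and 1.93 ± 0.37 in wildtype animals. Olfr558 was at 1.52 ± 0.25 in eB deletion and 1.59 ± 0.23 in wildtype animals, and Olfr78 at 0.93 ± 0.10 in eB deletion and 1.03 ± 0.09 in wildtype animals. Olfr545, at 0.26 ± 0.09 in eB deletion and 0.33 ± 0.12 in wildtype animals, was the lowest in every animal (SD, n = 6 each). The reads on genes include those on Gm10800, which lowers every RPKM of wildtype 2. By RPKM the lowest wildtype animal for Olfr690 was wildtype 2, at 3.47. By normalized count it was wildtype 3, at 132.2 against 138.5 in wildtype 2.

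Neighbours in the order by RPKM could not always be told apart. In eB deletion animals the ranges of Olfr690 and Olfr691 overlapped, with Olfr690 the higher in 3 of 6, and so did those of Olfr558 and Olfr544, and of Olfr544 and Olfr78. The range of Olfr691 lay above that of Olfr558, and the range of Olfr78 above that of Olfr545. In wildtype animals Olfr690 was above Olfr691 in 5 of 6, Olfr691 above Olfr544 in 4 of 6 and Olfr544 above Olfr558 in 5 of 6, with overlapping ranges each time. Olfr558 was above Olfr78, and Olfr78 above Olfr545, in all 6 without overlap. The place of Olfr78 in both groups depends on its length of 6033 bases, the exons of all its transcripts joined. The Olfr78 transcript used for the sequence comparison has 3410 bases. Before division by length, Olfr78 averaged more normalized counts than Olfr558. The means were 97.95 against 80.25 in eB deletion and 110.3 against 85.95 in wildtype animals.

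Among the 1380 receptor genes ranked by this level in each animal, Olfr690 held a median rank of 256.5 in eB deletion animals (112 to 425) and 127.5 in wildtype animals (85 to 176). Olfr691 held 311 (210 to 317) in eB deletion and 338 (164 to 388) in wildtype animals, and Olfr544 held 477.5 (419 to 812) in eB deletion and 400.5 (284 to 653) in wildtype animals. Olfr558 was at 528 (418 to 602) in eB deletion and 504.5 (392 to 660) in wildtype animals. Olfr78 was at 753.5 (716 to 810) in eB deletion and 764 (594 to 783) in wildtype animals, and Olfr545 at 1084 (1036 to 1157) in eB deletion and 1076 (1029 to 1119) in wildtype animals. In the plot of ranks the points of both groups overlapped for all 6 genes. The place of Olfr78 rests on its long annotated exons (6033 bases): without division by length its median rank over the 12 animals was 443.5, against 758.5 with it.

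**Figure D1:**
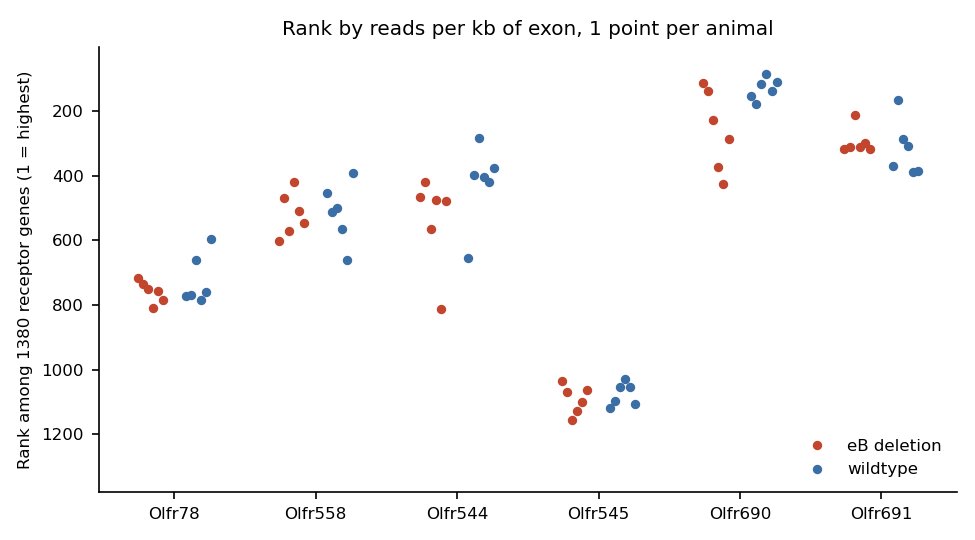
Rank of each gene among 1380 receptor genes by reads per kb of exon (vertical axis, 1 at the top), 1 point per animal, eB deletion animals left of wildtype animals for each gene. Olfr690 held ranks of 112 to 425 in eB deletion animals and 85 to 176 in wildtype animals, and Olfr545 held 1036 to 1157 in eB deletion animals and 1029 to 1119 in wildtype animals.

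The comparison of the genotypes asks whether these receptors lose expression when eB is missing. For 5 of the 6 the fitted value was lower in eB deletion animals and for Olfr691 it was slightly higher, but none passed the test over all genes. In limma-trend on log2(normalized count + 1), 0 of 19100 genes (0%) had a Benjamini-Hochberg adjusted p under 0.05, and edgeR's quasi-likelihood test on the recovered reads also called 0 of 19100 (0%). DESeq2 on the recovered reads called 22 of 16125 (0.136%), and the authors' deposited table lists 8 of 20419 genes with an adjusted p (0.0392%), with none of the 6 receptors in either count. Of the 6, Olfr690 alone had an unadjusted p under 0.05 in limma-trend with a lower value, a mark that 2.82% of all genes tested met (538 lower, while 540 were higher with such a p). A fitted value below 0 was found for 48.3% of all genes tested.

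The short-chain fatty acid receptors Olfr78 and Olfr558, the nearest of the 6 to the element, differed little. Olfr78 had a lowest, median and highest normalized count of 89.2, 93.7 and 117 in eB deletion animals and of 99.5, 108 and 123 in wildtype animals. The groups overlapped through 2 eB deletion animals, while the other 4 lay below every wildtype animal. Its log2 fold change was -0.17 ± 0.10 (SE; 95% interval -0.38 to 0.04; limma adjusted p = 0.900), with 5 of 6 eB deletion animals below the wildtype mean. At least 4 of 6 eB deletion animals below all wildtype animals were found for 2.79% of all genes tested, for Olfr78 and Olfr690 here, and for 23 of 114 other class I genes.

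Olfr558 had 67.2, 74.8 and 99.5 normalized counts (lowest, median, highest) in eB deletion animals and 67.9, 87.3 and 102.1 in wildtype animals. The groups overlapped over nearly their whole range. Its log2 fold change was -0.10 ± 0.13 (SE; 95% interval -0.38 to 0.18; limma adjusted p = 0.969). For both genes the interval reached down to -0.38, so it held the median value of the other class I genes, -0.24. The intervals of Olfr544, Olfr545, Olfr690 and Olfr691, given below, held that median too.

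The dicarboxylic acid receptors had lower means with wider spread. Olfr544 had 41.6, 92.8 and 110 normalized counts (lowest, median, highest) in eB deletion animals and 72.4, 117 and 132 in wildtype animals. The lowest value was that of eB deletion 5, and wildtype 1 was the low one among the wildtype animals, so the groups overlapped. Of the 12 animals, eB deletion 5 was also the lowest for Olfr690 and for the share of class I genes in receptor reads (7.07%). The log2 fold change of Olfr544 was -0.42 ± 0.21 (SE; 95% interval -0.86 to 0.02; limma adjusted p = 0.882), and -0.23 ± 0.16 without eB deletion 5 (limma adjusted p = 0.967).

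Olfr545, the near copy of Olfr544, had 7.39, 16.3 and 23.9 normalized counts (lowest, median, highest) in eB deletion animals and 12.04, 20.8 and 31.7 in wildtype animals. The groups overlapped, and the highest wildtype value was that of wildtype 2, the library with 11.02% of reads on Gm10800. Its log2 fold change was -0.33 ± 0.29 (SE; 95% interval -0.94 to 0.29; limma adjusted p = 0.946). It was -0.19 ± 0.29 without wildtype 2 (limma adjusted p = 0.967) and -0.14 ± 0.27 without eB deletion 3 (limma adjusted p = 0.986).

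The neighbours Olfr690 and Olfr691 had unlike fitted values, neither past the threshold. Olfr690 had 63.9, 93.6 and 171 normalized counts (lowest, median, highest) in eB deletion animals and 132, 144 and 182 in wildtype animals. The eB deletion animals split: eB deletion 1 and 2, at 171 and 158, lay within the wildtype range, and the other 4, between 63.9 and 99.0, lay below all 6 wildtype animals. The share of class I genes in receptor reads put the eB deletion animals in the same order. It was 9.72% and 8.99% in eB deletion 1 and 2, 8.39% to 8.51% in eB deletion 3, 4 and 6, and 7.07% in eB deletion 5. In wildtype animals it was 9.43% to 10.46%. The log2 fold change of Olfr690 was -0.53 ± 0.20 (SE; 95% interval -0.95 to -0.10; limma adjusted p = 0.8504), the lowest fitted value of the 6 and the eighth lowest of 120 class I genes tested. Without eB deletion 5, its lowest animal, it was -0.39 ± 0.18 (limma adjusted p = 0.950).

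Olfr691 had 92.1, 101 and 117 normalized counts (lowest, median, highest) in eB deletion animals and 73.2, 93.7 and 157 in wildtype animals. All 6 eB deletion animals fell inside the wildtype range, whose top was wildtype 2. Its log2 fold change was 0.04 ± 0.15 (SE; 95% interval -0.27 to 0.34; limma adjusted p = 0.993), and 0.17 ± 0.11 without wildtype 2 (limma adjusted p = 0.918). In the authors' deposited table, whose fold changes are shrunken and positive where wildtype is higher, Olfr690 is given 0.14 ± 0.07 (adjusted p = 0.999) and Olfr691 -0.01 ± 0.08 (adjusted p = 0.999).

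**Figure D2:**
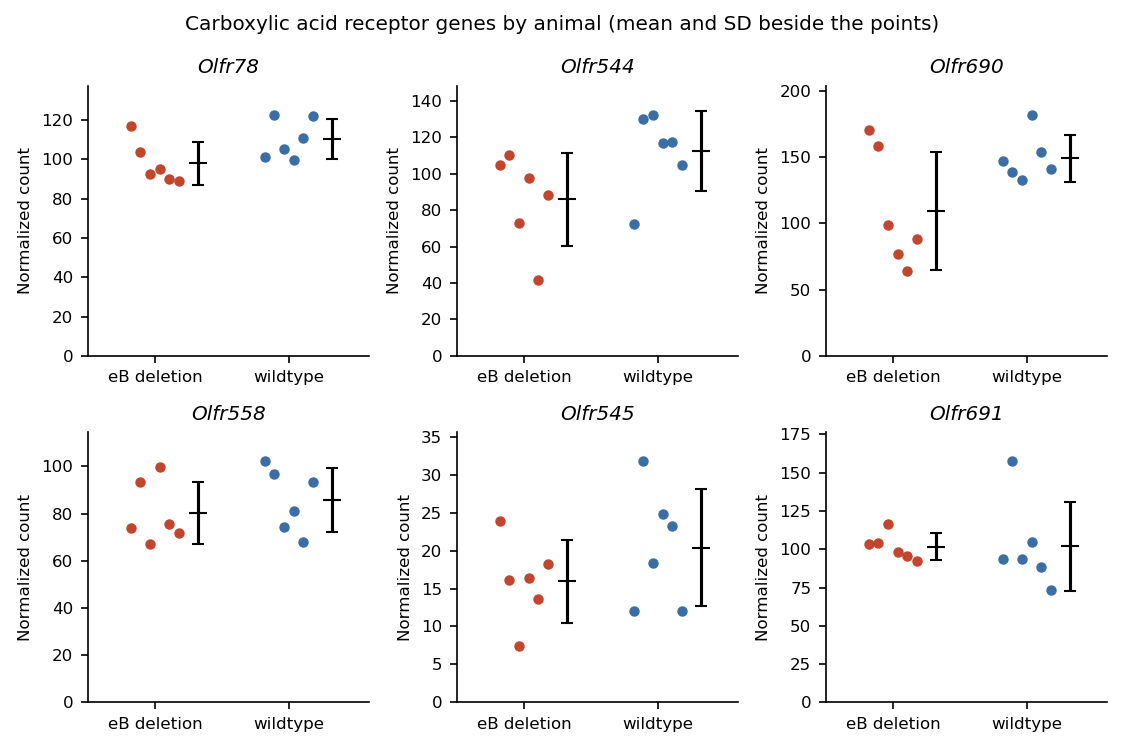
Normalized counts (vertical axes, from 0) of the 6 genes, 1 point per animal in order of replicate number, eB deletion left of wildtype, with the mean and SD of 6 animals beside the points. In Olfr690, 4 of the 6 eB deletion animals lie below all wildtype animals and 2 within their range, while for Olfr691 all 6 eB deletion animals lie inside the wildtype range.

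The log2 ratio of the members of each pair was compared between the groups, a comparison of 3 values chosen after the levels had been seen. Olfr690 over Olfr691 was 0.01 ± 0.53 in eB deletion and 0.58 ± 0.40 in wildtype animals (SD, n = 6 each). The difference was -0.56 ± 0.27 (SE; exact permutation p = 0.071, two-sided, adjusted 0.214 over 3 pairs), with 3 of 6 eB deletion animals below every wildtype animal. Leaving out each animal in turn gave differences from -0.715 to -0.445 with exact permutation p from 0.0303 to 0.143, not adjusted; p was under 0.05 without wildtype 2 and without eB deletion 1, and not in the other 10. Olfr78 over Olfr558 was 0.29 ± 0.25 in eB deletion and 0.37 ± 0.24 in wildtype animals, a difference of -0.07 ± 0.14 (SE; exact permutation p = 0.602, adjusted 0.734). Olfr544 over Olfr545 was 2.36 ± 0.55 in eB deletion and 2.46 ± 0.38 in wildtype animals, a difference of -0.10 ± 0.27 (SE; exact permutation p = 0.734, adjusted 0.734).

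**Figure D3:**
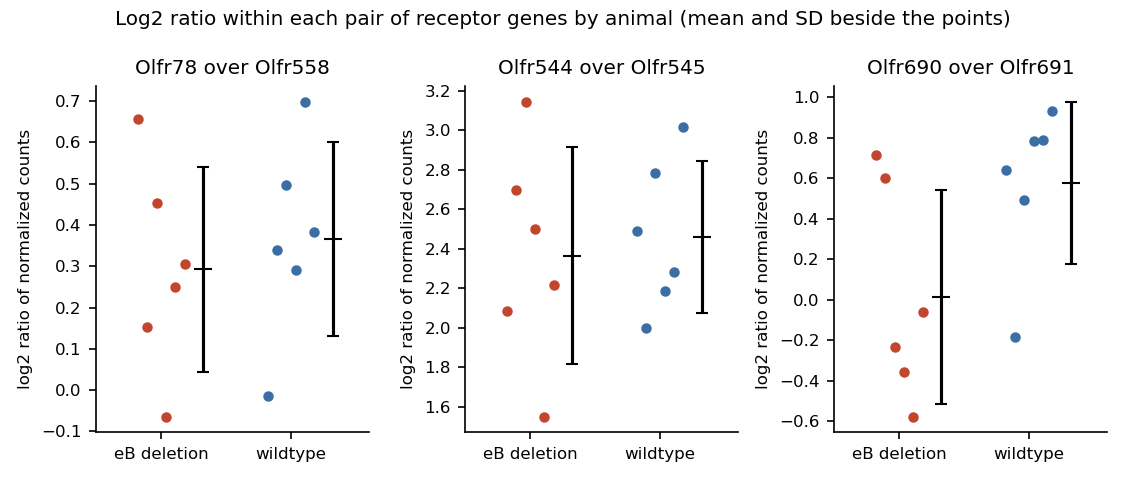
Log2 ratio of normalized counts + 1 (vertical axes) within the 3 pairs, 1 point per animal, eB deletion left of wildtype, with the mean and SD of 6 animals. For Olfr690 over Olfr691 the eB deletion mean is 0.01 and the wildtype mean 0.58, and the ranges of the groups overlap in all 3 pairs.

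How far the animals of a group scattered differed from gene to gene. Among eB deletion animals the counts of Olfr690 varied with a coefficient of variation of 40.5%, against 9.50% from counting alone, and a chi-square per degree of freedom of 17.6; among wildtype animals the coefficient was 11.8%, against 8.36% from counting, with a chi-square of 1.96. Without any 1 eB deletion animal the chi-square of Olfr690 stayed between 14.1 and 21.2. The share of class I genes in receptor reads also varied more among eB deletion animals, at 8.52% ± 0.87 against 9.91% ± 0.37 in wildtype animals (SD, n = 6 each). Olfr544 had chi-squares of 7.80 in eB deletion and 4.39 in wildtype animals, each resting on 1 animal: they were 2.72 without eB deletion 5 and 1.03 without wildtype 1. Olfr691 was at 0.87 in eB deletion and 6.69 in wildtype animals, of which the second rests on wildtype 2, the library with 11.02% of reads on Gm10800, and was 1.5 without it. Olfr78 scattered about as counting alone would, at 1.13 in eB deletion and 0.88 in wildtype animals, and Olfr558 and Olfr545 lay between 2.14 and 2.73 in either group.

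The 6 genes were next read against the rest of their class. The fitted value was below 0 for 93.0% of the 114 other class I genes that were tested and above it for the remaining 8, with a median log2 fold change of -0.24 and quartiles of -0.34 and -0.14, whereas the median over all genes tested was 0.00. Leaving out 1 animal moved the median of the other class I genes to between -0.299 (without eB deletion 1) and -0.163 (without eB deletion 5). No other class I gene passed limma-trend over all genes, and 26 had an unadjusted p under 0.05, all with lower values. The 6 carboxylic acid receptors had a median of -0.25, with Olfr690, Olfr544 and Olfr545 below the class median and Olfr78, Olfr558 and Olfr691 above it. Together they took 4.34% ± 0.15 of class I reads in eB deletion and 4.41% ± 0.27 in wildtype animals, and 0.37% ± 0.04 of all receptor reads in eB deletion and 0.44% ± 0.04 in wildtype animals (SD, n = 6 each).

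With every library scaled to the other class I genes, a setting added after the values were seen, none of the 6 passed (limma adjusted p from 0.214 to 0.761). This scaling moves the median of all genes tested by 0.23 on the log2 scale. The adjusted p-values are therefore not comparable with those of the fit above. For Olfr690 the unadjusted limma p was 0.071 here against 0.018 there, although its adjusted p was lower here (0.214 against 0.8504). Olfr690 was then at -0.30 ± 0.16 and Olfr544 at -0.19 ± 0.18, while Olfr691 was at 0.26 ± 0.16 and Olfr558 at 0.13 ± 0.16 (SE). Olfr78 (0.06 ± 0.14) and Olfr545 (-0.11 ± 0.27) were nearest to the class as a whole.

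**Figure D4:**
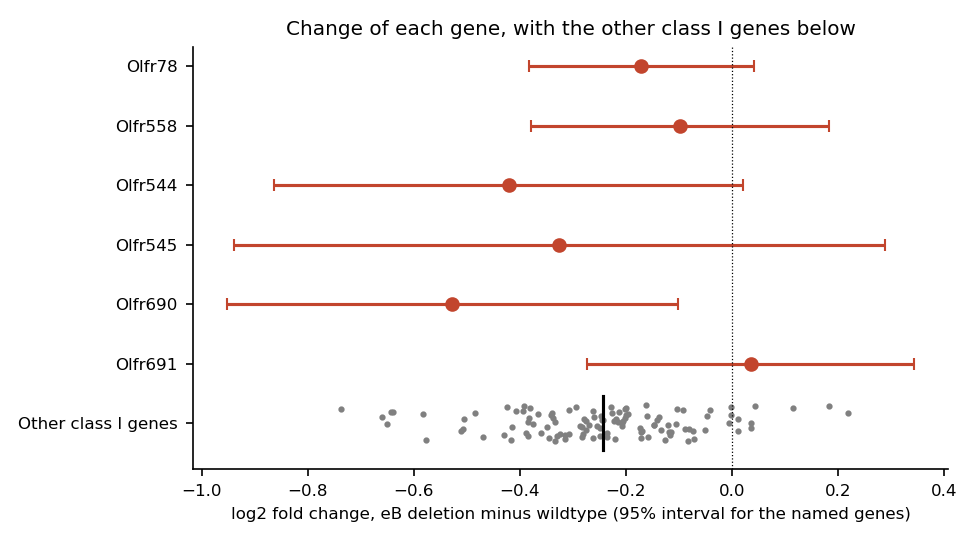
Log2 fold change, eB deletion minus wildtype, of the 6 genes with 95% intervals from limma-trend (red), and of the 114 other class I genes tested (grey points spread vertically for display; black line, median of -0.24). The interval of Olfr690 alone lies wholly below 0, and that of Olfr691 is centred near 0.

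Distance from the element did not order the 6. The nearest, Olfr78 at 88.2 kb and Olfr558 at 136 kb, had fitted values of -0.17 and -0.10, Olfr545 and Olfr544 at 348 and 359 kb had -0.33 and -0.42, and the most distant pair held both the lowest and the highest value of the 6. Their nearest tested receptor neighbours are given as values. Next to Olfr690, Olfr689 was at -0.51 ± 0.13 (167.8 ± 41.0 normalized counts in eB deletion and 233.2 ± 13.1 in wildtype animals, SD, n = 6 each; limma adjusted p = 0.682). On the far side of Olfr691, Olfr692 was at -0.09 ± 0.29. Beside Olfr558, whose 3′ end lies 0.087 kb from Olfr33, Olfr557 was at -0.33 ± 0.12 and Olfr33 at 0.01 ± 0.13. Beside Olfr78, Olfr559 was at -0.58 ± 0.28 and Olfr561 at -0.34 ± 0.14, and beside Olfr544 and Olfr545, Olfr543 was at -0.33 ± 0.14 and Olfr547 at 0.04 ± 0.37 (log2 fold change with SE; limma adjusted p from 0.816 to 0.999). Of the 35 other class I genes tested within 400 kb of the element, 31 (88.6%) were lower, with a median of -0.25. Over all 114 other class I genes tested, 93.0% were lower, with a median of -0.24.

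**Figure D5:**
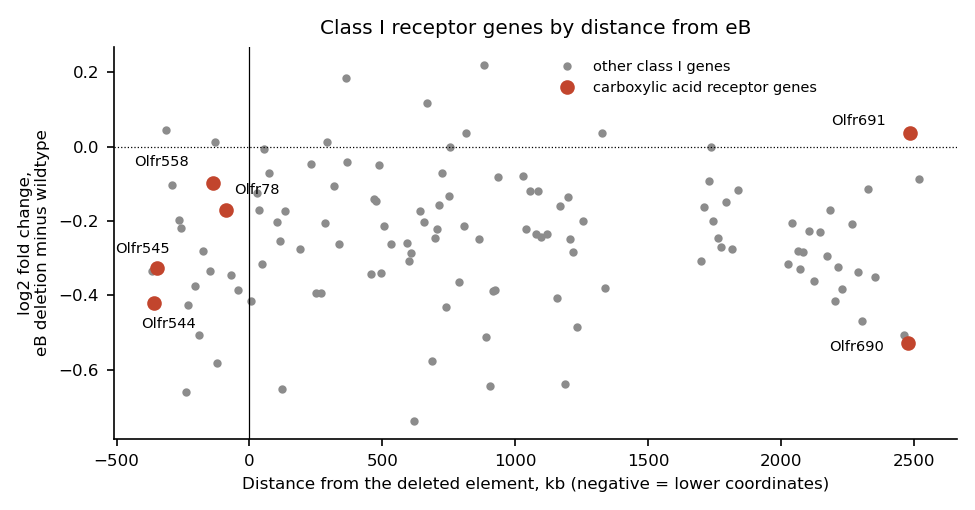
Log2 fold change, eB deletion minus wildtype (vertical axis), of the class I genes tested by their distance in kb from the deleted element (horizontal axis, negative towards lower coordinates), with the 6 carboxylic acid receptor genes in red. Olfr690 at -0.53 and Olfr691 at 0.04 lie side by side at the far end.

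The genes whose log2 values followed each receptor most closely over the 12 animals were taken from 19100 tested, and they are the highest of that many coefficients, given as a description with no test. For Olfr690 both were class I receptors, Olfr629 (Pearson r = 0.95, Spearman rho = 0.83) and Olfr570 (0.95 and 0.97). For Olfr78 they were the aminopeptidase gene Xpnpep2 (0.89 and 0.91) and the class I receptor Olfr553 (0.88 and 0.90). For Olfr544 they were the unclassified transcript RP23-255J24.2 (0.94 and 0.90) and the calpain gene Capn5 (0.94 and 0.97), for Olfr545 Gfy (0.89 and 0.83) and the antisense RNA Man2c1os (0.89 and 0.85), for Olfr558 RP23-61A11.2 (0.87 and 0.90) and the pseudogene Tmed10-ps (0.84 and 0.73), and for Olfr691 RP23-78F1.8 (0.87 and 0.78) and the metalloprotease gene Adamts14 (0.87 and 0.59). These coefficients share the library and its depth, and they were taken over both genotypes without removing the difference between them. The class I gene most like Olfr691 reached 0.64, against 0.81 to 0.95 for the best class I partner of the other 5.

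Genes that act with these receptors did not pass in either direction. Of 13 genes of the odor transduction cascade, 0 passed limma-trend over all genes, 11 had higher and 2 lower fitted values, and their median was 0.05. Among them, Gnal, which encodes the olfactory G protein alpha subunit, was at 0.06 ± 0.08, Gnb1, a beta subunit, at 0.02 ± 0.07, and Ric8b, which helps Gnal to reach the membrane, at 0.13 ± 0.07 (log2 fold change with SE; limma adjusted p from 0.892 to 0.992). Of 12 factors of receptor choice and trafficking, 0 passed, with a median of 0.03; the receptor transporters Rtp1 and Rtp2 were at 0.09 ± 0.07 and 0.02 ± 0.055, and the transcription factor Ebf2 at 0.05 ± 0.06 (limma adjusted p from 0.921 to 0.989).

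The receptors for carboxylic acids outside the odorant receptor family were scarcely detected. Of 9 such genes, only Hcar2, the receptor of niacin and ketone bodies, passed the filter, with 77.3 ± 18.8 normalized counts in eB deletion and 74.9 ± 13.2 in wildtype animals (SD, n = 6 each; log2 fold change 0.03 ± 0.16, limma adjusted p = 0.996). The short-chain fatty acid receptor genes Ffar2 and Ffar3 averaged 3.86 and 0.73 normalized counts in eB deletion animals and 5.79 and 0.42 in wildtype animals. The long-chain fatty acid receptor genes Ffar1 and Ffar4 averaged 1.47 and 7.30 in eB deletion and 4.39 and 13.45 in wildtype animals. The lactate receptor gene Hcar1 averaged 7.43 in eB deletion and 8.60 in wildtype animals. Gpr84, the succinate receptor gene Sucnr1 and Oxgr1 averaged at most 1.84 in either group.

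Because class I neurons lie in the dorsal zone and Olfr78 is also known from vascular smooth muscle, markers of zones and of other cells stand beside these results. Of 3 dorsal zone genes 0 passed: Nqo1, a quinone reductase of dorsal neurons, was at -0.35 ± 0.14, Acsm4 at -0.08 ± 0.09 and Robo2 at 0.03 ± 0.06. Of 5 ventral zone genes 0 passed, all with fitted values above 0, among them Nrp2 at 0.15 ± 0.06, Nfib at 0.14 ± 0.06 and Ncam2 at 0.03 ± 0.07 (limma adjusted p of the 6 named from 0.8504 to 0.984). Of 8 vascular smooth muscle markers, 7 were tested and 0 passed, all 7 with values below 0 and a median of -0.12; Rgs5 was at -0.08 ± 0.07, Acta2 at -0.12 ± 0.13 and Myh11 at -0.24 ± 0.09. Summed, the 8 took 1236 to 1423 CPM (reads on genes, scaled to a common total as in RPKM but without length) in eB deletion and 1304 to 1580 in wildtype animals. Rgs5 weighed most in this sum, with a mean of 18800 normalized counts in eB deletion and 19920 in wildtype animals. Acta2 had 2922 and 3188, and Myh11 875 and 1041. None of the 8 was at 0, and Des was under the filter at 8.88 normalized counts in eB deletion and 11.55 in wildtype animals. Of 5 endothelial markers 0 passed, all with values below 0 (median -0.15; 37.2 to 43.1 CPM in eB deletion and 34.7 to 49.8 in wildtype animals), with Kdr at -0.12 ± 0.10, Pecam1 at -0.19 ± 0.10 and Cdh5 at -0.04 ± 0.11. The part of vascular cells in the values of Olfr78 was not tested.

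Markers of neurons and of the other cells of the mucosa did not pass either. Of 8 mature neuron markers 0 passed, with a median of 0.06 and summed levels of 7611 to 9399 CPM in eB deletion and 7459 to 8810 in wildtype animals; Omp was at -0.03 ± 0.09, Stoml3 at 0.07 ± 0.09 and Cnga2 at 0.12 ± 0.07. The mature neuron list is not separate from those above. Adcy3, Cnga2, Gng13, Cngb1 and Ano2 are also among the odor transduction genes, and Rtp1 among the factors of receptor choice and trafficking. Of 5 immature neuron markers 0 passed (median -0.01), with Dpysl3 at 0.11 ± 0.08, Tubb3 at -0.12 ± 0.05 and Stmn1 at -0.01 ± 0.05. Of 3 sustentacular markers tested 0 passed (median 0.02), with Cyp2a5 at 0.02 ± 0.13, Cyp2g1 at -0.05 ± 0.09 and Ermn at 0.13 ± 0.07. Of 4 ciliated respiratory markers tested 0 passed (median 0.01), with Dnah5 at 0.01 ± 0.11, Foxj1 at -0.0017 ± 0.06 and Ccdc39 at 0.08 ± 0.07. Of 5 immune markers 0 passed (median -0.03), with Lyz2 at 0.18 ± 0.16, Csf1r at -0.03 ± 0.13 and Ptprc at -0.20 ± 0.12 (log2 fold change with SE; limma adjusted p of the markers named here from 0.877 to 0.9995).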

How the data were processed

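RNA was measured in olfactory mucosa of 12 mice, 6 per group, grouped by their titles. The deposited table holds a signal per gene, normalized counts that the authors made by dividing read counts by 1 size factor per sample, as the deposited values show: 100% of values were whole multiples of the column's smallest (relative tolerance 0.001), which gave back whole reads. STAR 2.6.0, DESeq2 and GRCm38.p6 are named per the submitters' processing notes. The table also holds the authors' log2 fold changes, test score, p-value and adjusted p-value, as deposited.

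limma-trend was run in R 4.3.3 (limma 3.58.1), with 1 added to each value before taking log2 and no covariates, on the 19100 genes that reached 10 in 6 samples, with Benjamini-Hochberg adjustment over all genes and a threshold of 0.05. Fold changes are on that scale, which understates low genes. edgeR 4.0.16 and DESeq2 1.42.0 ran on the recovered reads. The procedure was tested on simulated data. It recovered 2 of 50 genes changed 1.2-fold, 31 of 50 at 1.5-fold, 41 of 50 at 2-fold and 45 of 50 at 3-fold. There were 4 false calls. Changes near 1.2-fold would thus mostly be missed. Recovery at the levels and spread of the 6 receptors was not tested separately, so larger changes in them could be missed too. In the measured data Olfr690 had a fitted fold of 0.69 (eB deletion over wildtype) with a limma adjusted p of 0.8504. GENCODE M21 gave positions and exon lengths (exons of all transcripts of a gene joined) for 44840 genes, 90 had none. Coding sequences came from its transcripts. Class I genes are receptor genes at 102 to 106 Mb of chromosome 7 (151). Pairs were compared with exact permutation tests over 924 assignments (scipy 1.17.1). Python 3.11.15 and matplotlib 3.10.9 were used.

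The genes and lists were chosen with earlier results of these data known. Genes named were the 6 receptors, the 2 genes of highest Pearson r for each, their nearest tested receptor genes to left and right, and the 3 genes of highest mean from every list. Libraries of a group differed by a chi-square per degree of freedom of at least 14.7, so none was a copy of another in its group. Libraries of different groups were not compared in this way. The labels give no litter or batch, and the p-values measure the spread between these animals. Same-numbered animals of the groups did not deviate together, so the numbers were not taken as pairs.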

Additional observations from a re-analysis of the deposited data

Results flagged for a closer look

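Dixon's test for a single extreme value, at its 95% critical value, was applied to the highest and lowest animal of either genotype. Of 22 groups of values checked (the 6 receptor genes, their 3 ratios, their share of class I reads and Gm10800 in each genotype) 2 were past it, where chance gives about 1 in 20. Both were the share of reads on Gm10800: 2.376% in eB deletion 4 and 11.02% in wildtype 2 stood far from the other animals of their group. Wildtype 2 was also the highest wildtype animal for Olfr78, Olfr545 and Olfr691, and the part of Gm10800 in these values was not tested; the values without these libraries are given with the genes and below. No value of the 6 receptor genes was past it.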

How the results depend on the processing

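Olfr544, Olfr545 and Olfr690 kept negative log2 fold changes under every alternative run, and missed the threshold wherever an adjusted p was given (DESeq2 gave none for Olfr545), from -0.54 to -0.195, from -0.45 to -0.11 and from -0.67 to -0.30. Scaling to the other class I genes turned Olfr78 to 0.056 and Olfr558 to 0.129; it raised the median of all genes by 0.23. Leaving out 1 animal gave -0.22 to -0.14 for Olfr78, -0.16 to -0.05 for Olfr558, -0.54 to -0.23 for Olfr544, -0.45 to -0.14 for Olfr545, -0.67 to -0.39 for Olfr690 and -0.05 to 0.17 for Olfr691, which turned negative without eB deletion 3 (-0.005) and without wildtype 6 (-0.051). With the libraries above 1% Gm10800 left out, Olfr690 was at -0.46 and Olfr691 at 0.18; with those above 0.1% left out, at -0.62 and 0.17. With a replicate block, Olfr690 was at -0.53 (limma adjusted p = 0.794), and the block changed no call; same-numbered animals correlated between -0.116 and 0.161 in their deviations, and none of 6 correlated best with its own number. The count of genes past the threshold was 0 to 1 without 1 animal (1 without wildtype 6), 1 scaled to the other class I genes and 22 in DESeq2; the cause was not tested. The difference of Olfr78 over Olfr558 ran from -0.149 to -0.002 without 1 animal and was 0.001 without the 4 libraries with over 0.1% on Gm10800. That of Olfr544 over Olfr545 ran from -0.251 to 0.068, positive without eB deletion 5 (0.068) and without wildtype 6 (0.016). That of Olfr690 over Olfr691 ran from -0.715 to -0.445 without 1 animal and was -0.64 and -0.782 with the libraries above 1% and above 0.1% Gm10800 left out (exact permutation p = 0.0556 and 0.0571). The median of the other class I genes ran from -0.299 (without eB deletion 1) to -0.163 (without eB deletion 5) when 1 animal was left out. Without division by length, median ranks were 443.5 for Olfr78, 986 for Olfr545, 300.5 for Olfr690 and 449 for Olfr691, against 758.5, 1083, 146 and 311 with it. Olfr545 was not tested at a mean of at least 20. Its 10 to 26 reads per animal limit what can be seen.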
